A study of Homo sapiens with 6 samples.

Results

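The 10 genes described here are the receptor chains OSMR, IL6ST, IL6R and LIFR, the ligand LIF, the transcription factors STAT3, STAT5A and STAT5B, and the feedback inhibitors SOCS2 and SOCS3. They were taken by symbol from a table of 62696 genes, and all 10 were found. DMS53 is a human small cell lung cancer (SCLC) line of the neuroendocrine (NE) type. It was transduced with a lentivirus for constitutive expression of ONECUT2 (OC2) carrying an mGFP tag (OC2-OE, 3 libraries) or with the empty mGFP vector (control, 3 libraries), and both groups were selected with puromycin. RNA-Seq libraries of poly(A) RNA were sequenced to ask how enforced OC2 expression changes the transcriptome of this line. No time after transduction is given in the sources used here, and every comparison below is within this single line.

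Cytokines of the IL6 family signal through receptor complexes that share the IL6ST chain, also known as gp130. IL6R, LIFR and OSMR are the partner chains that decide which cytokine a cell can sense. Ligand binding activates JAK kinases bound to the receptors, and these phosphorylate STAT3 and, in part, STAT5, which enter the nucleus and drive target genes. SOCS genes are among those targets, and their products shut the receptors off. STAT activity is set by phosphorylation, which RNA-Seq does not measure.

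The libraries held between 16533284 and 19099337 counts. ONECUT2 summed to 1271 counts in the control libraries and 215647 in OC2-OE, in the direction the labels give. These counts cannot separate RNA of the vector from that of the endogenous gene. The NE list was measured in full, with 10 of 10 genes tested, and its summed level was 2563 to 2613 CPM (counts relative to library size, with TMM scaling) in control and 3245 to 3284 CPM in OC2-OE. Of its genes 2 rose (SCG2 and CHGA, the latter from a mean of 72.2 to 150 CPM) and 7 fell. The higher sum came from SCG2, a secretory granule protein, at 778 to 820 CPM in control and 2267 to 2285 CPM in OC2-OE, while the other 9 genes summed to 1780 to 1806 CPM and 979 to 999 CPM. Of the leukocyte list 8 of 10 genes were too low to test, CD3E and NKG7 had no count in any library, and the summed level was 4.12 to 4.98 CPM in control and 7.79 to 9.44 CPM in OC2-OE through CD14 and LYZ. The fibroblast list summed to 22.5 to 25.4 CPM and 28.5 to 32.4 CPM, with 2 genes higher and 1 lower of 7, and the endothelial list to 16 to 19.2 CPM and 5.05 to 5.83 CPM, with 0 higher and 3 lower of 6. Whether these marker genes have a part in the results below was not tested. In bulk RNA, fewer cells expressing a gene and less RNA per cell cannot be told apart.

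Enforced OC2 expression was accompanied by higher OSMR, SOCS2 and STAT5A, by small rises of STAT3 and STAT5B, and by lower IL6ST, IL6R and LIFR. Of the 10 genes, 9 had enough counts for the test and LIF did not. At an adjusted P-value under 0.001 (edgeR quasi-likelihood test, adjusted over 17307 genes), 5 rose and 3 fell, and SOCS3 did not pass. These 8 of 9 genes (88.9%) stand beside 56.5% of all tested genes that passed, 27.8% higher and 28.7% lower, so a pass alone says little in this comparison. The control and OC2-OE libraries did not overlap for any of the 9 genes, as for 73.2% of all tested genes (36.5% higher and 36.7% lower). The 9 genes had a median absolute log2 fold change of 0.52, beside 0.38 over all tested genes, and 3 of them passed with a change of at least 1 on the log2 scale, beside 17.3% of all tested genes.

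**Figure D1:**
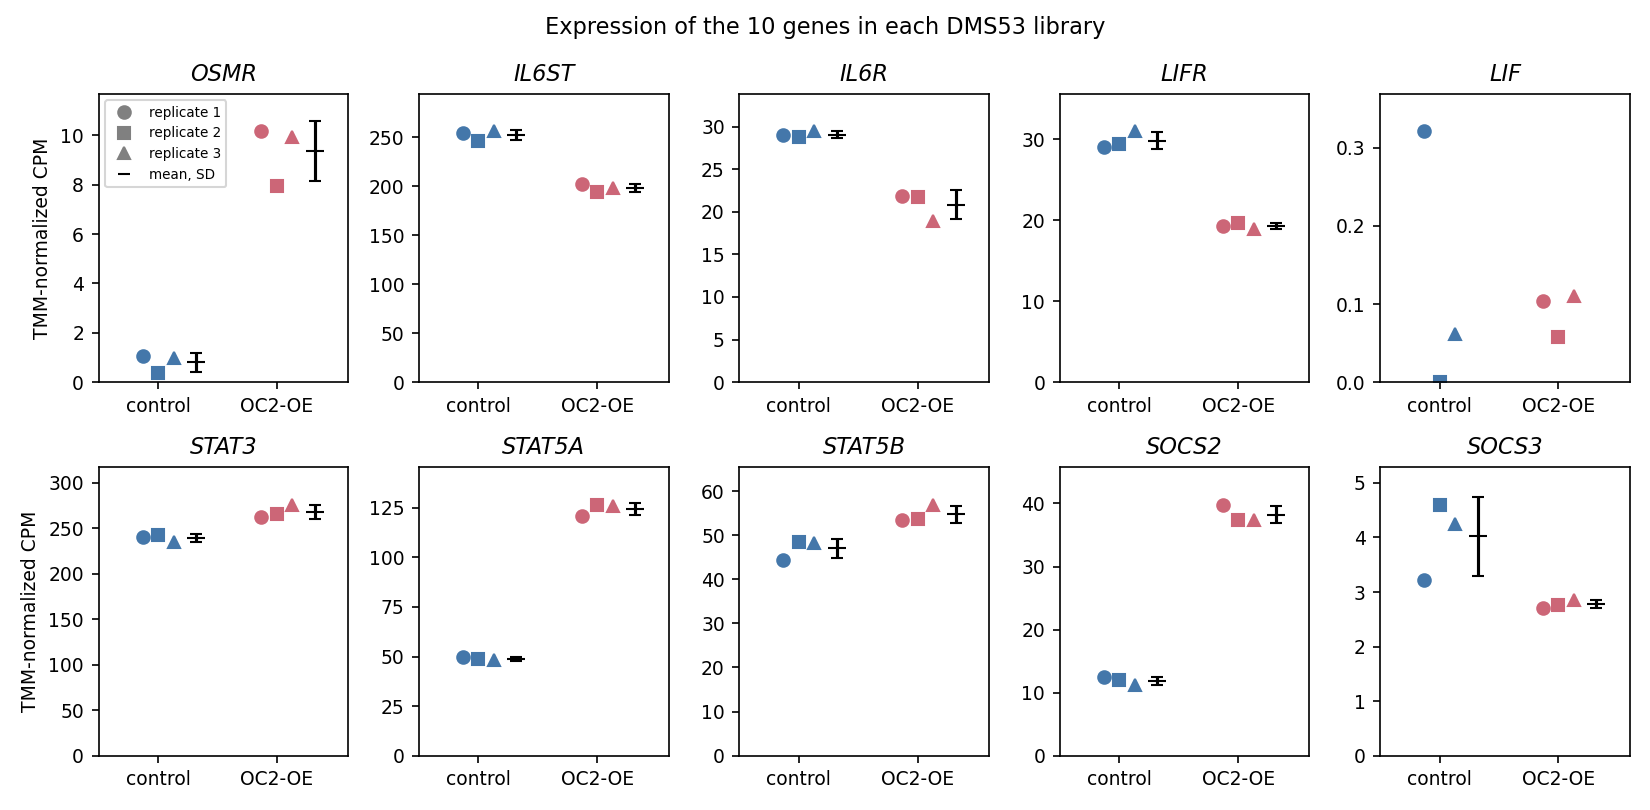
Level of each of the 10 genes in CPM (linear axes starting at 0) in the 3 control and 3 OC2-OE libraries. Symbols are libraries, and bars give the mean and SD for the 9 tested genes. OSMR, STAT5A and SOCS2 show the widest gaps relative to their level, while the LIF libraries hold 0 to 6 counts each.

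OSMR (ENSG00000145623.13, GRCh38 chr5:38845858-38945596, plus strand) encodes the chain that pairs with gp130 to bind oncostatin M. It had 20, 6 and 16 counts in the control libraries and 195, 138 and 181 in OC2-OE. All 3 control libraries were close to the detection limit and all 3 OC2-OE libraries were well above it. In CPM the level was 0.804 ± 0.388 in control and 9.36 ± 1.21 in OC2-OE (SD, n = 3 in each group, as for all values below), a log2 fold change of 3.52 (SE 0.19, adjusted p = 4.93e-33 by edgeR). Only 2 of the 3 control libraries reached the minimum of the expression filter (0.572 CPM), so OSMR entered the test through its OC2-OE libraries. Since the control mean rests on 42 counts, the fold is less certain than the direction, and it ran from 3.18 to 3.80 on the log2 scale over the 14 alternative analyses in which OSMR could be fitted. The window of 300 bases around the RefSeq start of OSMR, the gene with the largest change of the 10, reads as follows (250 bases before and 50 after the start, GRCh38.p14, chr5:38845762-38846061, plus strand, 5′ to 3′, with no letter in capitals because neither motif described further on was found).
OSMR promoter: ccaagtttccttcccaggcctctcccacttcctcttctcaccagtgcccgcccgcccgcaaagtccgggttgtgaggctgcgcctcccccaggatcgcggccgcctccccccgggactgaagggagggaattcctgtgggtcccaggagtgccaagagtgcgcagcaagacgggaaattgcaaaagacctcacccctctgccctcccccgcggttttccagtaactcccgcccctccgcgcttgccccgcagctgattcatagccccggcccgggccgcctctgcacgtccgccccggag

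IL6ST (ENSG00000134352.21, chr5:55935095-55995022, minus strand), the shared signal-transducing chain, was the most abundant receptor gene. Its level was 254, 246 and 256 CPM in control and 202, 194 and 198 CPM in OC2-OE. Every OC2-OE library lay below every control library, and the mean fell from 252 ± 5.23 to 198 ± 4.10 CPM, which is 21.5% lower (log2 fold change -0.35, SE 0.027, adjusted p = 3.01e-23).

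IL6R (ENSG00000160712.13, chr1:154405193-154469450, plus strand) encodes the chain that binds IL6. It had 541, 481 and 479 counts in control and 418, 377 and 344 in OC2-OE. The level fell from 29.1 ± 0.365 to 20.8 ± 1.68 CPM, or 28.3% (log2 fold change -0.48, SE 0.067, adjusted p = 2.04e-10). The spread in OC2-OE came from replicate 3, at 18.9 CPM against 21.8 CPM in replicates 1 and 2.

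LIFR (ENSG00000113594.10, chr5:38474668-38608354, minus strand) encodes the chain for LIF, which also serves oncostatin M and ciliary neurotrophic factor. It had 29.1, 29.4 and 31.0 CPM in control and 19.3, 19.7 and 18.9 CPM in OC2-OE, with no overlap. This was a fall of 35.3% (log2 fold change -0.63, SE 0.067, adjusted p = 2.49e-15). OSMR and LIFR are neighbours on chromosome 5, with start sites 237.504 kb apart, and they moved in opposite directions. Their ratio was not among those tested. Promoters 1 and 2 of LIFR are shown because they alone among the 13 promoters searched held a STAT-type site, here in capitals. Promoter 3 of LIFR held none. Promoters 1 and 2 follow RefSeq starts inside the span given above (GRCh38.p14, minus strand, chr5:38595356-38595655 for promoter 1 and chr5:38557418-38557717 for promoter 2).
LIFR promoter 1: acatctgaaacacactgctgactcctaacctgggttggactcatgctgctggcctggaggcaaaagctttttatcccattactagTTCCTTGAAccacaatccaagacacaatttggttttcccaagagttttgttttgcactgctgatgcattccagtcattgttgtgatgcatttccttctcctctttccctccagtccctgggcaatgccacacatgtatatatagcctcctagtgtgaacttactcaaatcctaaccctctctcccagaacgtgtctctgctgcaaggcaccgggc
LIFR promoter 2: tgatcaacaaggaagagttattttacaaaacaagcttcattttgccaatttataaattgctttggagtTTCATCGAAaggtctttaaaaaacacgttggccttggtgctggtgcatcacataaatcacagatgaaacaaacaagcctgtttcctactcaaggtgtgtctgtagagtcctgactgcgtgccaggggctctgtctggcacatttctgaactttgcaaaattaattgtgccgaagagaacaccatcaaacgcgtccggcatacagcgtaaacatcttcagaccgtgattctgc

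LIF (ENSG00000128342.5, chr22:30240453-30246759, minus strand), the ligand of LIFR, was barely detected. It had 6, 0 and 1 counts in control and 2, 1 and 2 in OC2-OE. The summed counts were 7 in control and 5 in OC2-OE. Relative to the TMM-scaled library sizes, the ratio of OC2-OE to control was 0.675. Its 95% interval was 0.169 to 2.47 for counting error only, so no difference was detectable at this depth.

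STAT3 (ENSG00000168610.16, chr17:42313324-42388540, minus strand), the main transcription factor downstream of gp130, was abundant in both groups. It had 240, 243 and 234 CPM in control and 262, 265 and 276 CPM in OC2-OE. The groups did not overlap, and the mean rose by 11.9%, from 239 ± 4.41 to 268 ± 7.17 CPM (log2 fold change 0.16, SE 0.026, adjusted p = 2.64e-08). This was the smallest absolute change among the 9 tested genes.

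STAT5A (ENSG00000126561.18, chr17:42287547-42311943, plus strand) and STAT5B (ENSG00000173757.11, chr17:42199176-42288633, minus strand) are close paralogs that act downstream of growth hormone, prolactin and many other cytokines. STAT5A had 934, 815 and 783 counts in control and 2321, 2194 and 2295 in OC2-OE. Its level rose 2.54-fold, from 48.9 ± 0.944 to 125 ± 3.0 CPM (log2 fold change 1.35, SE 0.040, adjusted p = 3.93e-60). STAT5B had 831, 809 and 783 counts in control and 1026, 929 and 1037 in OC2-OE. It rose by 16.6%, from 47.0 ± 2.18 to 54.7 ± 1.93 CPM (log2 fold change 0.22, SE 0.049, adjusted p = 2.71e-05). The STAT5B call did not hold without control replicate 1 (log2 fold change 0.18, adjusted p = 0.00150) or without OC2-OE replicate 3 (0.20, adjusted p = 0.00106).

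The paralogs share sequence, so a part of the reads could fit either gene. Of all 50-base stretches of the STAT5A transcripts 8.61% also occurred in STAT5B, and of those of STAT5B 7.81% occurred in STAT5A. The headers of the count files name no option that would keep pairs mapping to several places, so pairs that fit both genes equally well are not in either count. Within each library the ratio of STAT5A to STAT5B counts was 1.12, 1.01 and 1.00 in control and 2.26, 2.36 and 2.21 in OC2-OE. This ratio needs no scaling between libraries, and it rose by 1.13 on the log2 scale (exact two-sided permutation p = 0.1, the smallest that 3 against 3 libraries can give, and 0.1 after adjustment over 4 ratios). A promoter of each paralog is shown because the changes of the pair differed in size. Both windows follow RefSeq starts that lie inside the spans given above, the STAT5B window far inside, so they are not the pair of gene starts used for distances further on (GRCh38.p14, chr17:42288248-42288547, plus strand, for STAT5A promoter 3, and chr17:42276342-42276641, minus strand, for STAT5B).
STAT5A promoter 3: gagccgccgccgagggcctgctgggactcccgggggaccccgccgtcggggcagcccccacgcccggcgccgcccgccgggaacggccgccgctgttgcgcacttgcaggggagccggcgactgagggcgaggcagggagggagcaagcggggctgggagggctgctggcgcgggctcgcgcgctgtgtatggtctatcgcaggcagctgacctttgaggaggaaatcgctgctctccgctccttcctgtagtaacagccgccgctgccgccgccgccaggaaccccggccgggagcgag
STAT5B promoter: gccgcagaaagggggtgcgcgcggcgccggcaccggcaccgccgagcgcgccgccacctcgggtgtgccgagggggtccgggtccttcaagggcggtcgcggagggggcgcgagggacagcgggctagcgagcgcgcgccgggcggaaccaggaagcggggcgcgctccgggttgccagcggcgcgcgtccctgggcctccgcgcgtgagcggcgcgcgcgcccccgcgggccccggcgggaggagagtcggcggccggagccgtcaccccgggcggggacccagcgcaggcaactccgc

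SOCS2 (ENSG00000120833.14, chr12:93569814-93583487, plus strand) is a STAT5 target that restrains growth hormone signalling. It had 232, 201 and 182 counts in control and 763, 649 and 681 in OC2-OE. The replicates lay close together in both groups, and the level rose 3.21-fold, from 11.9 ± 0.624 to 38.2 ± 1.39 CPM (log2 fold change 1.68, SE 0.071, adjusted p = 2.95e-45).

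SOCS3 (ENSG00000184557.4, chr17:78356778-78360077, minus strand), the inhibitor that binds gp130 and is a classical STAT3 target, had a low level. It had 60, 77 and 69 counts in control and 52, 48 and 52 in OC2-OE. The groups did not overlap in CPM, at 4.02 ± 0.722 and 2.78 ± 0.0707, but the difference did not pass the threshold (log2 fold change -0.52, SE 0.18, adjusted p = 0.00589). Its control libraries varied from 3.21 to 4.60 CPM, more than the OC2-OE libraries at 2.71 to 2.85 CPM. Over the alternative analyses its adjusted p ran from 0.00105 to 0.0584, with the log2 fold change below 0 in all of them.

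**Figure D2:**
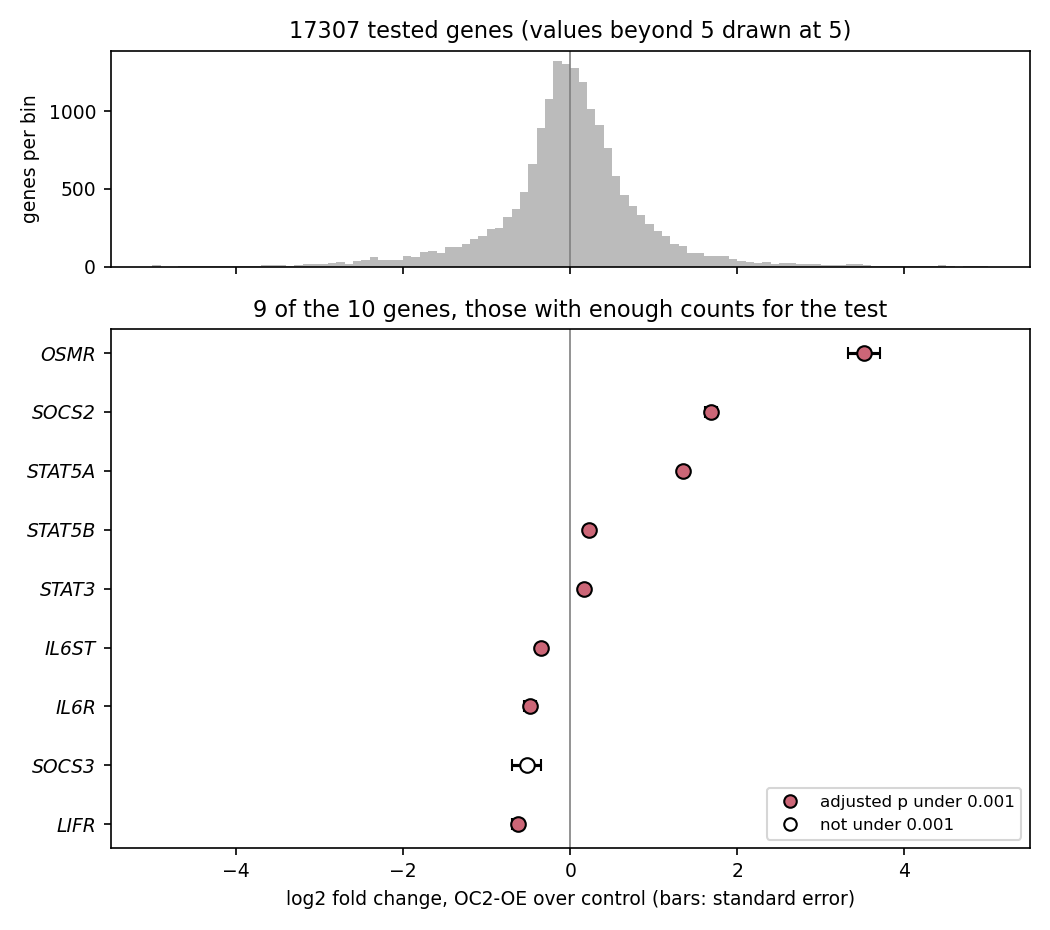
The upper panel counts all 17307 tested genes by their log2 fold change of OC2-OE against control, and the lower panel gives the 9 tested genes described here with their SE, filled where the adjusted p was under 0.001. OSMR (3.52), SOCS2 (1.68) and STAT5A (1.35) lie beyond 1, and the other 6 lie between -0.63 and 0.22.

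The makeup of the receptor transcripts was also compared within libraries. For every 100 IL6ST counts there were 0.422, 0.146 and 0.384 OSMR counts in control and 5.04, 4.11 and 5.02 in OC2-OE, a log2 difference of 3.97. LIFR gave 11.4, 11.9 and 12.1 counts per 100 IL6ST counts in control and 9.53, 10.2 and 9.57 in OC2-OE, a difference of -0.28. IL6R gave 11.4, 11.7 and 11.5 and then 10.8, 11.2 and 9.54, a difference of -0.13. Each of these 3 ratios separated the groups, and each had an exact two-sided permutation p of 0.1, the smallest possible. The IL6R ratio rested most on OC2-OE replicate 3 and was -0.07 without it.

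Levels of different genes were compared per kilobase of exon (CPM per kb). In control the order was STAT3 (21.3 ± 0.394), IL6ST (20.9 ± 0.434), STAT5A (7.67 ± 0.148), IL6R (4.15 ± 0.0522), STAT5B (3.88 ± 0.180), LIFR (2.45 ± 0.0847), SOCS2 (1.83 ± 0.0964), SOCS3 (1.47 ± 0.264) and OSMR (0.112 ± 0.0541). The libraries of STAT3 and IL6ST overlapped in this order, and so did those of OSMR and LIF. In OC2-OE STAT5A (19.5 ± 0.471) stood above IL6ST (16.4 ± 0.340) and below STAT3 (23.9 ± 0.640). SOCS2 (5.90 ± 0.214) stood above STAT5B, IL6R and LIFR, while OSMR reached 1.30 ± 0.169, between LIFR (1.59 ± 0.0307) and SOCS3 (1.02 ± 0.0259). No neighbours in the OC2-OE order overlapped between libraries. Even after its rise, OSMR stayed below the other 3 receptor chains per unit of exon length.

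**Figure D3:**
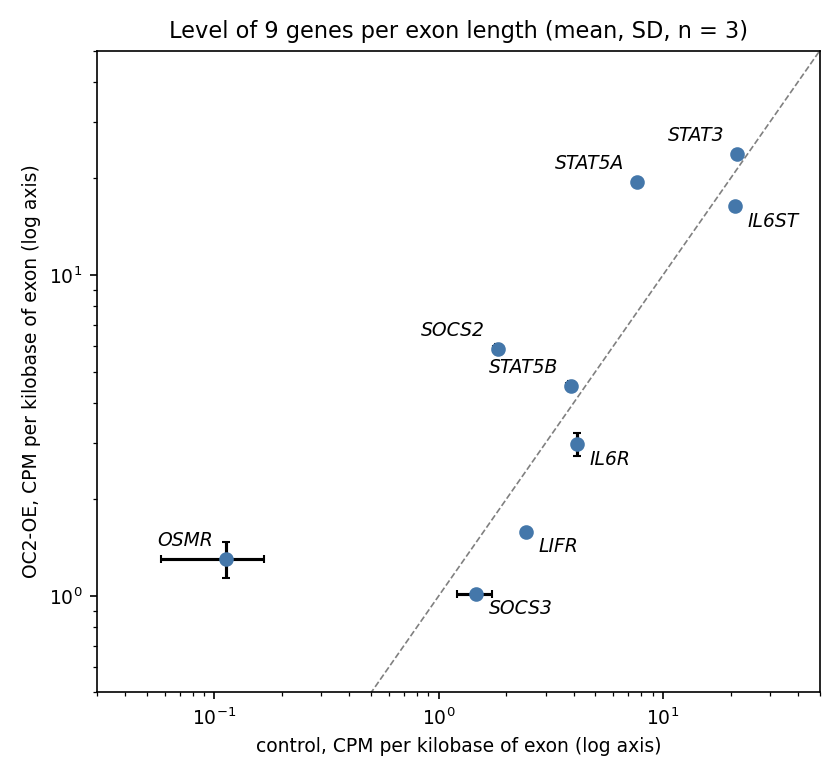
CPM per kilobase of exon in OC2-OE (vertical log axis) against control (horizontal log axis) for the 9 tested genes, as means with SD (n = 3), with the dashed line marking equal levels. OSMR, SOCS2 and STAT5A lie well above the line, and IL6R, LIFR, IL6ST and SOCS3 lie below it.

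The rest of the pathway was read from 10 lists holding 85 different genes, of which 58 could be tested. Of these 24 rose, 13 fell and 21 did not pass (63.8% passed, beside 56.5% of all tested genes), with a median log2 fold change of 0.19 beside 0.01 over all tested genes. Some genes stand on more than one list.

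Of 9 IL6-family ligands 5 could be tested, with a median of -0.66, and OSM, which encodes oncostatin M, the ligand of OSMR, had no count in any library, nor had IL27. CNTF, a neurotrophic ligand that signals through LIFR, fell from 102 to 44 counts summed over 3 libraries (log2 fold change -1.29, adjusted p = 3.50e-05). IL6 itself, named here after its values were seen, had 110 and 188 counts and did not pass (log2 fold change 0.69, adjusted p = 0.00129). In the main fit 0 ligands were called higher and 1 lower. With library size only or upper-quartile scaling, 1 was called higher. The same count was reached without control replicate 1 or OC2-OE replicate 1, and without the latter 2 were lower. The summed level of the 9 ligands was low, at 7.89 to 10.2 CPM in control and 7.85 to 8.51 CPM in OC2-OE.

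Of the 4 other receptor chains 3 could be tested, with a median of -0.53. IL11RA, the IL11 receptor, rose from 94 to 175 counts (0.81), and IL27RA, the IL27 receptor, fell from 6.43 ± 0.136 to 3.24 ± 0.421 CPM (-0.98). The IL11RA call was lost in 5 of the 6 analyses that left out a single library (all but OC2-OE replicate 2) and in DESeq2 (adjusted p = 0.00377).

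All 4 JAK kinases rose, with a median of 0.59. JAK1, the main kinase of gp130 receptors, rose from 256 ± 3.27 to 403 ± 2.96 CPM (log2 fold change 0.65, SE 0.024, adjusted p = 1.83e-50). JAK3 rose by 0.93, TYK2 by 0.53 and JAK2 by 0.37 on the log2 scale. The JAK2 call was lost in 4 of the 6 analyses without a single library (control replicates 1 and 2 and OC2-OE replicates 1 and 3, adjusted p up to 0.00373) and in DESeq2 (0.00311).

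Other STAT genes were read one by one. STAT2, a component of the interferon response complex, rose from 52.7 ± 3.19 to 136 ± 3.33 CPM (log2 fold change 1.37), about as much as STAT5A. STAT4 rose from 54 to 251 counts (2.13), and STAT6, which acts downstream of IL4, rose by 0.55 on the log2 scale.

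Among 6 other SOCS genes none rose and 1 fell at the 0.001 threshold, with a median of 0.03. SOCS2 was thus the single SOCS gene called higher at that threshold. A threshold of 0.05 would add SOCS6 as higher (log2 fold change 0.095, adjusted p = 0.0485 by edgeR), a gene named after its values were seen. SOCS4 fell by 0.41 on the log2 scale, and CISH, a classical STAT5 target named after its values were seen, did not pass (log2 fold change -0.46, adjusted p = 0.0132). Of 8 PIAS genes and phosphatases, which restrain STAT factors or dephosphorylate the pathway, 2 rose and 1 fell, with a median of 0.01. PIAS3, an inhibitor of STAT3, rose from 19.7 ± 1.52 to 41.9 ± 0.857 CPM (1.08), PTPN6 rose by 0.32 and PTPN2 fell by 0.21 on the log2 scale. The PTPN2 call was lost without OC2-OE replicate 3 (adjusted p = 0.00275) and when counts were scaled by library size alone (0.00147).

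Of 13 other receptors that signal through STAT5, 5 could be tested, with a median of -0.63. GHR, the growth hormone receptor, had 19, 17 and 10 counts in control and 311, 299 and 292 in OC2-OE. The level was 0.883 ± 0.232 and then 16.5 ± 0.659 CPM (log2 fold change 4.20, SE 0.16, adjusted p = 5.94e-50), a larger fitted fold than that of OSMR. PRLR, the prolactin receptor, fell by 0.63, and LEPR, the leptin receptor, fell by 1.05 on the log2 scale. For 5 receptors no count was found, and 2 of these, CSF2RA and IL3RA, lie in the pseudoautosomal region, where all 10 genes checked had no count, so this counting says nothing about them.

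**Figure D4:**
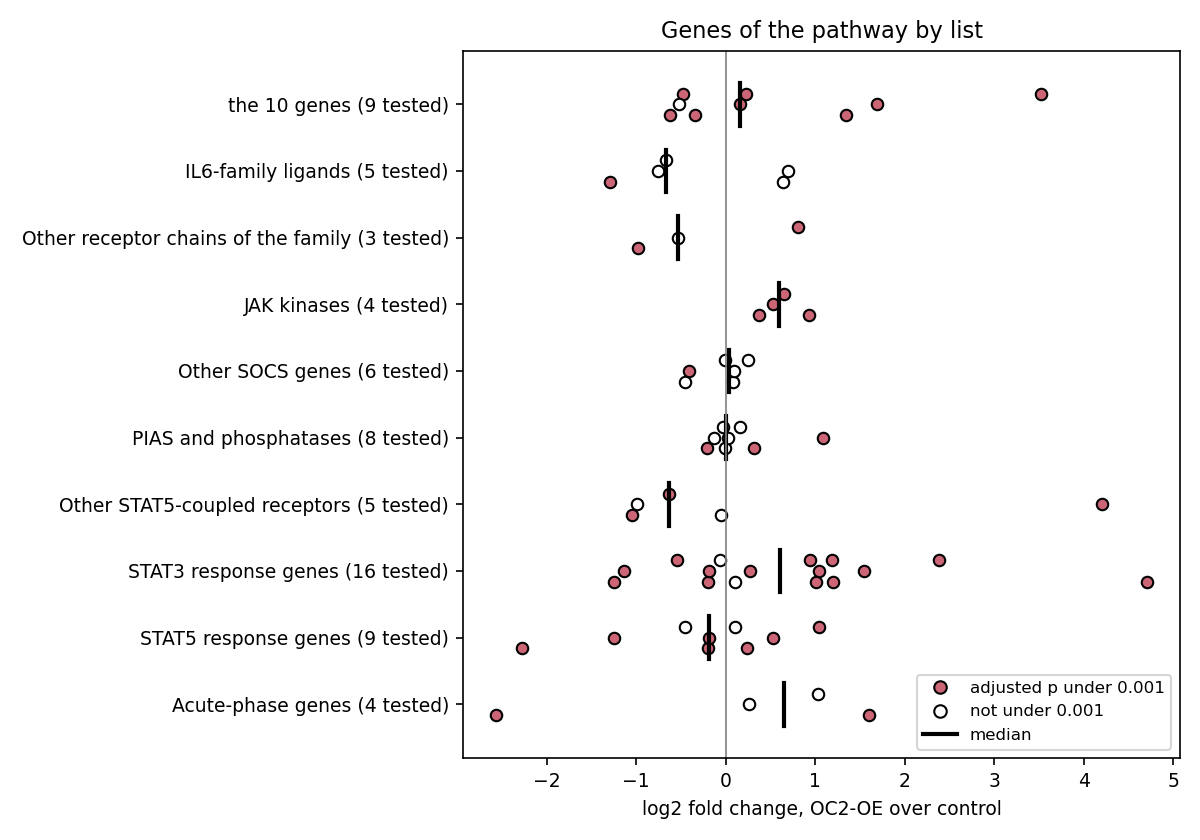
Log2 fold change of OC2-OE against control for each tested gene (circles, filled where the adjusted p was under 0.001) of the 10 genes and of 9 pathway lists, with the median of each list as a bar. The JAK list lies wholly above 0, while the ligand and STAT5-coupled receptor lists have medians of -0.66 and -0.63.

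Of 16 genes known to respond to STAT3, all were tested, 9 rose and 5 fell, with a median of 0.61. IER3, an early response gene, rose from 22.5 ± 0.708 to 586 ± 2.38 CPM (log2 fold change 4.71), TIMP1, an inhibitor of matrix metalloproteinases, by 2.38 and CEBPB, a transcription factor of the acute-phase response, by 1.54. CCND1, the gene of cyclin D1, fell by 1.24 on the log2 scale.

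Of 10 STAT5 response genes 9 were tested, 3 rose and 4 fell, with a median of -0.19. BCL6, a transcriptional repressor, rose by 1.04 and PIM2, a survival kinase, by 0.53. IGF1, the growth factor induced by growth hormone in liver, fell from 36.4 ± 0.290 to 7.47 ± 0.724 CPM (log2 fold change -2.28), and CCND1 stands on this list too. Of 18 genes on the acute-phase list, 4 could be tested and 14 could not, and 5 had no count at all. SERPINA1, the gene of alpha-1 antitrypsin, rose 3.03-fold, from 16.5 ± 0.707 to 49.8 ± 2.19 CPM, and A2M fell from 41 to 7 counts (-2.57).

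Genes that lie beside the 10 genes were read from the same fit, within 500 kb of their start sites. Of 102 such genes 36 rose and 28 fell (62.7%, beside 56.5% of all tested genes), with a median log2 fold change of 0.09. RICTOR, the tested neighbour of OSMR on the side away from LIFR, lay 228.541 kb from it and did not pass (log2 fold change -0.15, adjusted p = 0.00296). None of the 3 genes tested within the window of OSMR rose, and LIFR-AS1, a noncoding RNA beside LIFR, was at 0.33 (adjusted p = 0.428). The LIFR-AS1 value ran from 0.049 to 0.581 when single libraries were left out. SLC38A9 near IL6ST rose by 0.48 on the log2 scale. Beside IL6R, UBE2Q1 fell by 0.25 and ATP8B2 was at 0.10 (adjusted p = 0.306).

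Around SOCS2 6 genes were tested, of which 3 rose and 1 fell. SOCS2-AS1, a noncoding RNA on the opposite strand whose start lies 1.954 kb from that of SOCS2, rose from 1.23 ± 0.170 to 7.77 ± 0.349 CPM (log2 fold change 2.65, SE 0.18, adjusted p = 1.54e-27). The libraries keep the strand, so its reads were counted apart from those of SOCS2. On the other side MRPL42, a mitochondrial ribosomal protein gene 102.3 kb away, was at -0.02 (adjusted p = 0.561).

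STAT3, STAT5A and STAT5B form a cluster on chromosome 17, with the starts of STAT5A and STAT5B 1.086 kb apart and that of STAT3 100.993 kb from STAT5A. Within the window of STAT5A 39 genes were tested, 20 rose and 10 fell. Among those past a change of 1, DHX58, an RNA sensor of the interferon response, rose by 2.81, ZNF385C by 1.96, C17orf113 by 1.76, RAMP2 by 1.24, HSD17B1 by 1.16, EZH1, a Polycomb methyltransferase, by 1.13 and CNTNAP1 by 1.04 on the log2 scale. WNK4, a kinase that regulates ion transport, fell by 1.34. The HSD17B1 call was lost without control replicate 1 or 2 or OC2-OE replicate 2 or 3 (adjusted p up to 0.00314), and the WNK4 call without control replicate 2 or OC2-OE replicate 1 or 3 (up to 0.00400). ATP6V0A1, the nearest tested gene beyond STAT3, rose by 0.49, and GHDC, on the side of STAT5B, by 0.91. Among these genes the log2 fold changes of the STAT genes alone ran from 0.16 (STAT3) to 1.35 (STAT5A).

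Near SOCS3 13 genes were tested, 4 rose and 4 fell. BIRC5, the gene of the mitotic protein survivin, fell by 2.29 on the log2 scale. TK1, a thymidine kinase of S phase, fell by 1.31, TMC8 by 1.12 and PGS1, the nearest tested gene, by 0.34. DNAH17, a dynein heavy chain, rose by 1.04. The TMC8 call was lost without OC2-OE replicate 2 (adjusted p = 0.00164).

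Near LIF 18 genes were tested, 4 rose and 7 fell. RNF215 rose by 1.26 and RPL13AP26, a ribosomal pseudogene whose reads may belong to its parent gene, by 1.86 on the log2 scale. MTFP1 fell by 1.13 and the nearest tested gene, given as ENSG00000225676, by 1.78, while TBC1D10A did not pass (0.42, adjusted p = 0.00206). OSM lies closer to LIF but had no count and was not tested. The RPL13AP26 call was lost without control replicate 2 or 3 or OC2-OE replicate 2 (adjusted p up to 0.00762), and the MTFP1 call without control replicate 3 (0.00251).

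Promoter windows were searched on both strands for a STAT-type site (TTCNNNGAA, which reads the same on both strands) and for the ONECUT core (ATTGAT, or ATCAAT on the other strand). RefSeq held 13 promoters for 8 of the 10 genes, and none for LIF and SOCS2 in the table used. The windows follow RefSeq starts, and those of LIFR, STAT5B and SOCS3 do not cover the start of the gene span given above. The sequence at those span starts was therefore not searched. The STAT-type site was found in 2 of 13, both of LIFR, and in 7.66% of 35116 promoters of the same length. The sites printed above begin at -165 (TTCCTTGAA) and -182 (TTCATCGAA) from the RefSeq start of their windows. The ONECUT core was in 0 of 13 windows and in 6.26% of all promoters. A match of letters is a description and not a binding site.

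For the largest rises, OSMR and SOCS2, the 3 genes with the most similar levels were sought by Euclidean distance of log2 CPM over the 6 libraries. For OSMR these were CFAP91 (distance 0.980), RAET1G (1.11) and ENTPD3 (1.20), with log2 fold changes of 2.97, 2.99 and 3.55. For SOCS2 they were LPIN3 (0.176), CARD8 (0.212) and DYSF (0.255), with log2 fold changes of 1.65, 1.68 and 1.78.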

How the data were processed

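Per the labels and methods, stranded poly(A) libraries were sequenced, the authors aligned reads with STAR 2.7.9a to GRCh38 and counted read pairs with featureCounts 1.6.0 on GENCODE release 42. The deposited values are raw counts per gene, with no normalization. The 6 libraries held 16533284 to 19099337 counts, which limits genes with few counts such as OSMR and LIF. The study describes independent experiments, but the labels give only numbers, so p-values measure the spread between these libraries. That spread was small, with a biological coefficient of variation (variation beyond counting error) of 2.2%. The labels do not say whether libraries come from separate transductions, so variation between transductions may not be in the p-values.

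In R 4.3.3, edgeR 4.0.16 (TMM, filterByExpr, robust quasi-likelihood test, no replicate term) was fitted to 17307 genes, with Benjamini-Hochberg adjustment and the threshold of 0.001 of the study. CPM use TMM-scaled library sizes. Each SE was derived from the fold change and its F statistic. Ratios had 0.5 added to each count for the log2 scale. The fit was tested on simulated data. The 10 genes and all lists were chosen with earlier results of these data known. Named list genes are the up to 4 with the largest change past the threshold. Named neighbours are the nearest tested genes and those that passed with a log2 change beyond 1. A result of the lists is not reported here. Shared 50-base stretches were counted in GENCODE release 29 transcripts. Alternatives were other scalings, filters, thresholds, DESeq2 1.42.0, limma 3.58.1 voom, a replicate term, and leaving out each library.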

Additional observations from a re-analysis of the deposited data

How the results depend on the processing

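The direction of all 9 tested genes was the same in every alternative run. A minimum change of 1 on the log2 scale left 3 of the 10 genes higher and 0 lower, and removed IL6ST (-0.35), IL6R (-0.48), LIFR (-0.63), STAT3 (0.16) and STAT5B (0.22). It left 1435 genes higher and 1564 lower of all tested, 12 and 6 of the pathway genes, and 13 and 6 of the genes within 500 kb, the 10 included. A threshold of 0.05 added SOCS3 (-0.52). Leaving out each library gave 4 to 5 of the 10 genes higher and 3 to 3 lower, 4425 to 4561 and 4514 to 4779 over all genes, 22 to 24 and 12 to 14 pathway genes, 35 to 38 and 27 to 29 genes within the windows, and 0.18 to 0.24 for STAT5B. The filter of 10 counts in every library removed OSMR. MRPL42, which did not pass in any of them, turned to 0.0295 with library size only and 0.0216 with upper-quartile scaling, and ran from -0.0485 to 0.0138 over the left-out libraries. No scaling moved the median over all genes by more than 0.06. Counts of OSMR in control and of LIF limit precision.

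Deviations of same-numbered libraries from their group means had correlations of 0.0011, 0.030 and 0.025 over 11060 genes. For differently numbered libraries the correlations ran from -0.032 to 0.0051. These deviations also hold counting error, so values this near 0 cannot decide whether the numbers pair the libraries. With a replicate block 4734 genes were higher and 4908 lower, and of the 10 genes 5 and 3.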
